A study of Homo sapiens with 4 samples.

Results

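The genes described here are 33 regulators and executors of apoptosis: members of the BCL2 family, caspases, inhibitor of apoptosis proteins (IAPs), factors that mitochondria release, adaptors of death receptors and the nuclease that cuts DNA in dying cells. They were taken by symbol from RNA-seq gene tables, where genes are named by Entrez identifier. All 33 had a row among the 17009 genes used of the JFK pair, and 32 among the 16856 of the siRNA pair, where BCL2A1 has no row and is not analysed here. The libraries came from cells labelled HepG2, a human line from a liver tumour. Cells were given either a FLAG-JFK plasmid or vector, or either an siRNA against ING5 or a control siRNA. JFK is an alias of FBXO42, an F-box protein that selects substrates for a ubiquitin ligase, and ING5 is a chromatin reader in histone acetyltransferase complexes. Each of the 4 groups held 1 library, so no difference has a replicate check and no p-value is given.

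Apoptosis runs along a pair of routes that meet at the executioner caspases. In the mitochondrial route, BH3-only proteins sense damage and bind the guardians BCL2, BCL-xL, BCL-w and MCL1, which otherwise hold the pore formers in check. Open pores release cytochrome c, which assembles APAF1 into the apoptosome, the platform that activates caspase-9. In the receptor route, FADD recruits caspase-8 to ligand-bound death receptors, and in some cell types BID carries this signal on to mitochondria. IAPs block caspases and are themselves displaced by proteins from mitochondria. Most of these steps are controlled at the protein level, by cleavage, phosphorylation and binding, which transcript counts do not measure.

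Reads assigned to genes came to 7237325 in the library labelled JFK, 7179365 in vector, 9030075 in ING5 siRNA and 9196979 in control siRNA. ING5 had 81 counts in ING5 siRNA against 144 in control siRNA, a log2 fold of −0.81 (interval −1.23 to −0.41). Folds are of counts scaled to the pair's library sizes, and intervals are exact 95% Clopper-Pearson intervals that cover counting error only. FBXO42 had 115 expected counts in the library labelled JFK against 116 in vector, so its transcript was not higher where the label names the plasmid, which is why the text speaks of a labelled library. Of 15 genes of proteins that hepatocytes secrete, 2 reached 20 counts in each library, VTN and RBP4. Between 6 and 9 of the 15 were at 0 counts or had no row, an absent row being read as 0. ALB, APOA2, APOH, TTR and TF had no row in either pair. AFP had no row in the JFK pair, with 0 counts in ING5 siRNA and 1 in control siRNA. These genes thus do not bear out the HepG2 label, and the identity of the cells was not tested. Markers of other cells were also counted, foremost KRT17, listed here for basal epithelium. The others of its list were low. KRT5 had no row in the JFK pair, with 1 count in ING5 siRNA and 0 in control siRNA. KRT14 had 11.79 expected counts in the library labelled JFK, 11.75 in vector, 1 in ING5 siRNA and 3 in control siRNA. TP63 had 30 counts in the library labelled JFK, 22 in vector, 4 in ING5 siRNA and 8 in control siRNA. The 4 markers of keratinocytes or basal epithelium, of which KRT17 gave the most counts, summed to 3811 CPM, the count scaled to library size, in the library labelled JFK against 2928 in vector, and to 255 CPM in ING5 siRNA against 295 in control siRNA. The 5 endothelial markers summed to 12.4 CPM in ING5 siRNA against 26.5 in control siRNA, where KDR had no row. CDH5 gave 87 of 112 counts in ING5 siRNA and 224 of 244 in control siRNA. The same list summed to 164 CPM in the library labelled JFK against 145 in vector. Of these, CDH5 gave 1132 of 1185 counts in the library labelled JFK and 995 of 1044.5 in vector. The 6 fibroblast markers summed to 94.1 CPM in ING5 siRNA and 96.1 in control siRNA, with 5 at 20 counts or more in each, and to 78.8 CPM in the library labelled JFK against 76.3 in vector. The 6 leukocyte markers summed to 50.4 and 61.4 CPM in ING5 siRNA and control siRNA. They summed to 184 and 183 CPM in the library labelled JFK and vector. Most of it was CD68, and CD3E had no row in either pair. The part of these marker differences in the results below was not tested. The label names a single cell line, so these markers are not read as other cell types being present. Bulk RNA cannot tell fewer cells of a type from less RNA per cell.

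The promoters of 4 genes are shown because these genes lie at the ends of the comparisons: CASP9 and BAD, the lowest measured members in ING5 siRNA, APAF1, the highest measured member there, and CASP6, the lowest in the library labelled JFK. BIK, the highest there, has no entry in the promoter table. Each run gives the 250 bases before the first start listed by RefSeq (GRCh38.p14), 5′ to 3′ on the gene's strand. CASP9 lies at chr1:15524216-15524465 and BAD at chr11:64284705-64284954, both on the minus strand. APAF1 lies at chr12:98645040-98645289 on the plus strand and CASP6 at chr4:109703446-109703695 on the minus strand. Capitals mark matches, on either strand, to 3 motifs: the GC box GGGCGG, the CCAAT box CCAAT and the NF-kB motif, GGGA and CC parted by any 4 bases.
CASP9: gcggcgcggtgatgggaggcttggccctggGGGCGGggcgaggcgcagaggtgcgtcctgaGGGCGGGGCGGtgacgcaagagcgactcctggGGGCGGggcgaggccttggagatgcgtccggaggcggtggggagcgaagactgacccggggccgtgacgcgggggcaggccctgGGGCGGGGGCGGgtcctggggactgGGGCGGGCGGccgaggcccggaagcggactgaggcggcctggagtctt
BAD: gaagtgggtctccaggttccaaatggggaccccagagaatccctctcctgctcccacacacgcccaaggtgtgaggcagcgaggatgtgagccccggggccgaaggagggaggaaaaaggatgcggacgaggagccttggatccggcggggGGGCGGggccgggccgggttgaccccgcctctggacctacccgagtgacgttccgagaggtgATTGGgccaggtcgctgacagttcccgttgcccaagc
APAF1: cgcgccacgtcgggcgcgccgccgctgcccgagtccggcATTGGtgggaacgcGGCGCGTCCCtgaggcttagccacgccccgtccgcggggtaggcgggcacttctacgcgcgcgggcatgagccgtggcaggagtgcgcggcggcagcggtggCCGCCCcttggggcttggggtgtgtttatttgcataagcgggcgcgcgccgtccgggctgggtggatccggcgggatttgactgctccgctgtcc
CASP6: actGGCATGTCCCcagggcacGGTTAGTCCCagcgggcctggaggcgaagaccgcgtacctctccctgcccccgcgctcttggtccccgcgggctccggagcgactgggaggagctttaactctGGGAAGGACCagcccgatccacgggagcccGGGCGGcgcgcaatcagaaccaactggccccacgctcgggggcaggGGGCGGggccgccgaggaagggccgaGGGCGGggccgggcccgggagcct
The CASP9 window holds 8 GC boxes, some of them overlapping each other, a number reached by 0.619% of 27305 promoters of this length. CASP6 holds 3 GC boxes and 3 NF-kB matches, while BAD and APAF1 hold 1 GC box each. Among all promoters 42.3% hold a GC box, 9021 of 27305 a CCAAT box and 22.1% an NF-kB match. Of the 27 apoptosis genes with a promoter in the table, 19 held a GC box, 12 a CCAAT box and 11 an NF-kB match. TATA boxes (TATAAA, in 11.1% of all promoters) and E-boxes (CACGTG, in 6.49%) were found in 3 and 1 of the 27, and in none of the 4 printed. The median promoter of the 27 had 66.4% G and C and 22 CpG dinucleotides, against 58% and 11 over all promoters. A match is a description of letters and not a site of binding.

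Levels per transcript length, as the deposited FPKM or RPKM, show which members of each class carry most of the transcript. MCL1, the short-lived guardian on which many tumour lines depend, stood at the top of all members in each library, with 83.3 FPKM in the library labelled JFK, 98.01 FPKM in vector, 116 RPKM in ING5 siRNA and 108 RPKM in control siRNA. CASP4, an inflammatory caspase that senses bacterial lipopolysaccharide, came next in each, with 74.6 FPKM in the library labelled JFK, 80.5 FPKM in vector, 56.0 RPKM in ING5 siRNA and 44.1 RPKM in control siRNA. BCL2L1, which encodes BCL-xL, had 47.8 FPKM in the library labelled JFK, 46.7 FPKM in vector, 25.1 RPKM in ING5 siRNA and 21.4 RPKM in control siRNA. BCL2 itself was near the bottom, at 1.15 FPKM in the library labelled JFK, 1.52 FPKM in vector, 0.812 RPKM in ING5 siRNA and 0.787 RPKM in control siRNA. MCL1 thus made up 59.9% of the summed guardian level in the library labelled JFK, 64.0% in vector, 75.4% in ING5 siRNA and 76.8% in control siRNA.

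BCL2A1, a guardian best known as an NF-kB target in blood cells, had 2.02 expected counts in the library labelled JFK against 0 in vector. Both lie under the floor of 3 counts, so no fold is given. The BH3-only genes BMF and HRK were sparse as well. BMF, whose protein is held at the cytoskeleton, had 10 counts in the library labelled JFK against 3 in vector, and 13 in ING5 siRNA against 6 in control siRNA. HRK, known mainly from neurons, had 21 counts in the library labelled JFK against 22 in vector, a log2 fold of −0.04, and 11 in ING5 siRNA against 6 in control siRNA. Genes were taken as measured from 20 normalised counts on average, and by this 31 members were measured in the JFK pair and 30 in the siRNA pair.

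**Figure D1:**
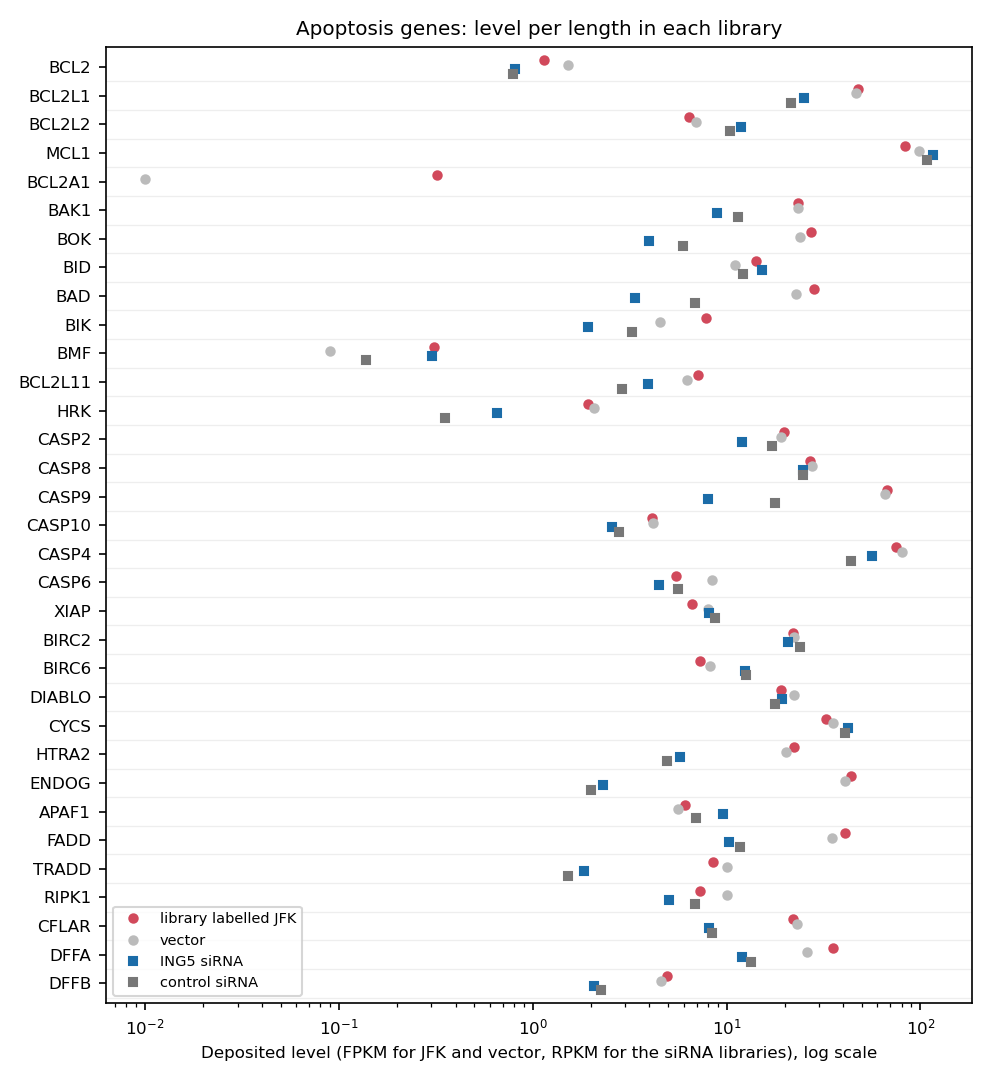
Level of each apoptosis gene in each library, as deposited FPKM (library labelled JFK and vector, circles) or RPKM (ING5 siRNA and control siRNA, squares) on a log axis, 1 point per library. MCL1 is at the right edge in all 4 libraries, 83.3 to 116, and the 0.01 of BCL2A1 in vector stands for no reads.

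The JFK pair and the siRNA pair also differed from each other at their controls. Of 30 members measured in both pairs, 12 had a level at least 2-fold lower in control siRNA than in vector, 40.0% against 19.2% of 10326 genes, and 0 were 2-fold higher, against 1094 of the 10326 genes. ENDOG, a mitochondrial nuclease, had 1.99 RPKM in control siRNA and 41.0 FPKM in vector, which as CPM is 2.28 against 46.2. Exons of ENDOG overlap SPOUT1 on the opposite strand, with 278 counts in control siRNA and 520 expected counts in vector. Reads from that overlap cannot be told apart. CASP9 had 17.8 RPKM in control siRNA and 65.6 FPKM in vector, TRADD 1.53 RPKM in control siRNA and 10.04 FPKM in vector, and BOK 5.96 RPKM in control siRNA and 23.8 FPKM in vector. ENDOG, CASP9, TRADD and BOK are among 13 members with the same length in both pairs. CFLAR, counted among the 12, is listed with 11061 bases in the siRNA pair and 5575 in the JFK pair. As CPM it had 93.5 in control siRNA and 144 in vector. BCL2L11, also among the 12 and of unlike length, had 15.1 CPM in control siRNA and 24.6 in vector. The pairs were processed and normalised separately. The ratio of the levels followed the GC content of the transcript, with a Spearman rho of −0.71 over the 30 members and −0.63 over all 10326 genes. Genes share their libraries, so these values are a description.

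The ING5 siRNA library, with its control siRNA library, bears on which transcripts differ when ING5 is lower. CASP9, the initiator caspase of the apoptosome, stood at 0.451 of its control, and BAD, a BH3-only protein switched off by growth factor signalling, at 0.496. Other genes of the mitochondrial route went both ways. APAF1, the partner of caspase-9, and BCL2L11, which encodes the BH3-only protein BIM, were higher, while the pore formers BOK and BAK1 were lower. Over the 30 measured members the median log2 fold was −0.03, against −0.01 over all 11634 measured genes. Above 0 lay 13 members, beside 48.6% of all measured genes. At 1.5-fold, 3 members were lower and 0 higher, where all measured genes gave 4.4% lower and 4.01% higher. That makes 10% of the members apart in either direction, near the background of 8.41%. At 2-fold, 2 of the 30 were apart, both lower, where 1.46% of all measured genes were apart in either direction.

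CASP9 had 158 counts in ING5 siRNA and 355 in control siRNA, with 8.01 RPKM in ING5 siRNA and 17.8 RPKM in control siRNA. The log2 fold was −1.15, with an interval of −1.43 to −0.88. At this gene the siRNA libraries were thus farther apart than counting error. In the library labelled JFK, CASP9 had 1057 counts against 1020 in vector (0.08, interval −0.05 to 0.20). CELA2B, whose exons overlap CASP9 on the other strand, had at most 1 count in the JFK pair and no row in the siRNA tables. Among the initiator caspases the share of CASP9 in the summed RPKM was 16.9% in ING5 siRNA and 28.5% in control siRNA.

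The other initiator caspases were nearer to their control. CASP2, the most conserved caspase, activated on the PIDDosome, had 467 counts in ING5 siRNA and 669 in control siRNA (−0.50, interval −0.68 to −0.33). CASP8, which starts the receptor route, had 661 counts in ING5 siRNA and 672 in control siRNA (−0.01, interval −0.16 to 0.15). CASP10, its close relative, had 138 counts in ING5 siRNA and 151 in control siRNA (−0.11, interval −0.46 to 0.23). All 4 initiator caspases lay below 0, with CASP8 and CASP10 within counting error. CASP6, an executioner that cleaves nuclear lamins, had 68 counts in ING5 siRNA and 86 in control siRNA (−0.32, interval −0.80 to 0.15). CASP4 stood the other way, with 690 counts in ING5 siRNA and 548 in control siRNA (0.35, interval 0.18 to 0.51).

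APAF1 had 628 counts in ING5 siRNA and 462 in control siRNA (log2 fold 0.46, interval 0.28 to 0.64). Per length, the ratio of APAF1 to CASP9 was 1.19 in ING5 siRNA and 0.391 in control siRNA, while in the JFK pair it was 0.0912 in the library labelled JFK against 0.0858 in vector. Per length, the caspase was the more abundant transcript in 3 of the 4 libraries, and ING5 siRNA was the exception. By counts not scaled to length, APAF1 exceeded CASP9 in control siRNA too, with 462 against 355. CYCS, cytochrome c, had 2135 counts in ING5 siRNA and 2079 in control siRNA (0.05, interval −0.03 to 0.14). CYCS has many processed pseudogenes, so how its reads were assigned is uncertain.

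**Figure D2:**
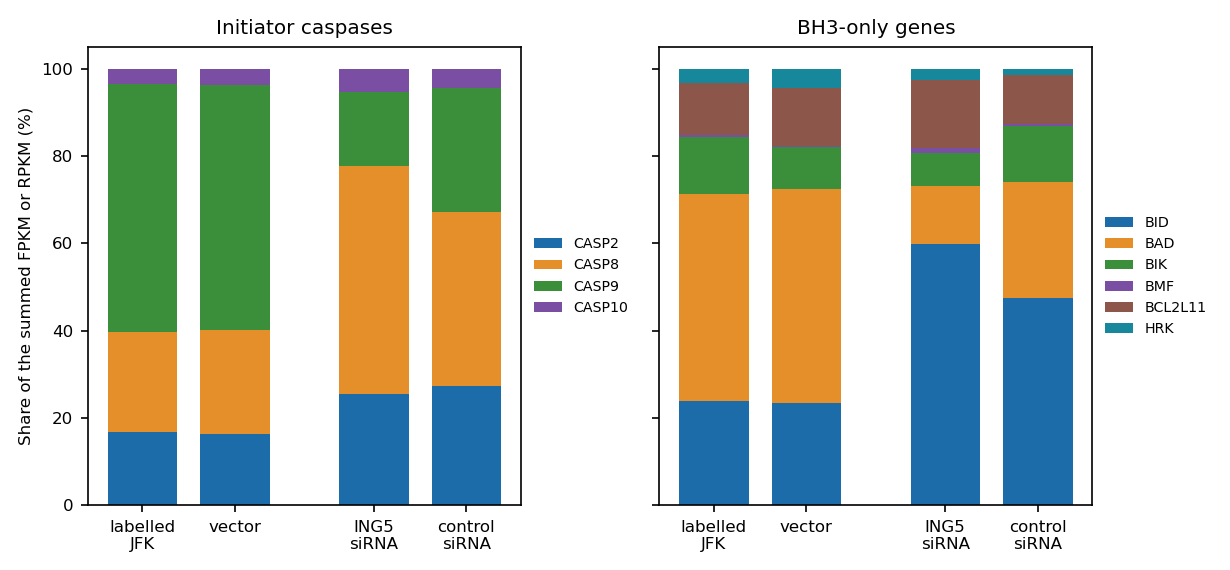
Share of each gene in the summed level of the initiator caspases and of the BH3-only genes, in percent of summed FPKM or RPKM, 1 bar per library. CASP9 takes 16.9% in ING5 siRNA and 28.5% in control siRNA, and BAD takes 13.2% in ING5 siRNA and 26.7% in control siRNA, while CASP9 takes 56.9% in the library labelled JFK, 56.4% in vector.

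BAD had 38 counts in ING5 siRNA and 78 in control siRNA, with 3.36 RPKM in ING5 siRNA and 6.84 RPKM in control siRNA (log2 fold −1.01, interval −1.62 to −0.44). Exons of BAD overlap GPR137 on the opposite strand, which had 91 counts in ING5 siRNA and 116 in control siRNA. No source used here states whether the counting used strand, so reads from the overlap cannot be told apart. BIK, a BH3-only protein of the endoplasmic reticulum, had 17 counts in ING5 siRNA and 29 in control siRNA, and its interval of −1.71 to 0.16 includes 0 (log2 fold −0.74). BID had 351 counts in ING5 siRNA and 283 in control siRNA (0.33, interval 0.10 to 0.56). BCL2L11 had 188 counts in ING5 siRNA and 139 in control siRNA (0.45, interval 0.13 to 0.78), but overlaps the long non-coding gene MIR4435-2HG, with 184 counts in ING5 siRNA against 107 in control siRNA. Of the 4 measured BH3-only genes, BID and BCL2L11 had intervals above 0, BAD had one below, and that of BIK included 0.

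Both pore formers were lower. BOK, a pore former unstable in healthy cells, had 97 counts in ING5 siRNA and 146 in control siRNA (−0.57, interval −0.96 to −0.19), just under 1.5-fold. BAK1, which sits in the mitochondrial outer membrane, had 180 counts in ING5 siRNA and 231 in control siRNA (−0.34, interval −0.63 to −0.06). BAX, its partner and not 1 of the 33, had 156 counts in ING5 siRNA and 136 in control siRNA, with an interval of −0.13 to 0.56 (log2 fold 0.21). All 4 measured guardians lay above 0, from 0.05 for BCL2, with 48 counts in ING5 siRNA and 47 in control siRNA, to 0.23 for BCL2L1, with 589 counts in ING5 siRNA and 508 in control siRNA. Intervals were above 0 for BCL2L1 (0.06 to 0.40) and MCL1 (0.04 to 0.16), with MCL1 at 4328 counts in ING5 siRNA and 4090 in control siRNA. BCL2L2, the BCL-w gene, lay at 0.18 (interval −0.03 to 0.39). Its exons overlap PPP1R3E on the opposite strand, with 417 counts in ING5 siRNA and 457 in control siRNA, so its reads are uncertain.

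RIPK1, the kinase that decides between survival and death signalling below the TNF receptor, had 178 counts in ING5 siRNA and 243 in control siRNA (−0.43, interval −0.72 to −0.15). The adaptor FADD had 174 counts in ING5 siRNA and 201 in control siRNA (−0.19, interval −0.49 to 0.11), and CFLAR, which blocks caspase-8, 817 in ING5 siRNA and 860 in control siRNA (−0.06, interval −0.20 to 0.08). TRADD, the adaptor of the TNF receptor, had only 25 counts in ING5 siRNA and 21 in control siRNA. Of the IAPs, BIRC2, the ubiquitin ligase cIAP1, had 772 counts in ING5 siRNA and 903 in control siRNA (−0.21, interval −0.35 to −0.07). XIAP, the direct caspase inhibitor, lay at −0.10 (interval −0.26 to 0.06) and BIRC6, a giant membrane-bound IAP, at −0.01 (interval −0.10 to 0.09). Their antagonists DIABLO and HTRA2 lay at 0.12 (interval −0.09 to 0.33) and 0.22 (interval −0.15 to 0.60). Exons of HTRA2 overlap AUP1 on the opposite strand, with 559 counts in ING5 siRNA and 636 in control siRNA. ENDOG had 24 counts in ING5 siRNA and 21 in control siRNA, an interval across 0. DFFB, the DNA-cutting nuclease, and DFFA, its inhibitor, lay at −0.13 and −0.16 with intervals across 0.

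In the siRNA pair 6 intervals lay wholly above 0 (BCL2L1, MCL1, BID, BCL2L11, CASP4 and APAF1) and 7 wholly below (CASP9, BAD, BOK, BAK1, CASP2, RIPK1 and BIRC2). Over all measured genes 18.3% of intervals lay above 0 and 20.6% below, near the shares among the 30. Between fold and GC content the Spearman rho was −0.004 over 10699 genes with a GC value and −0.15 over the 30 members.

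**Figure D3:**
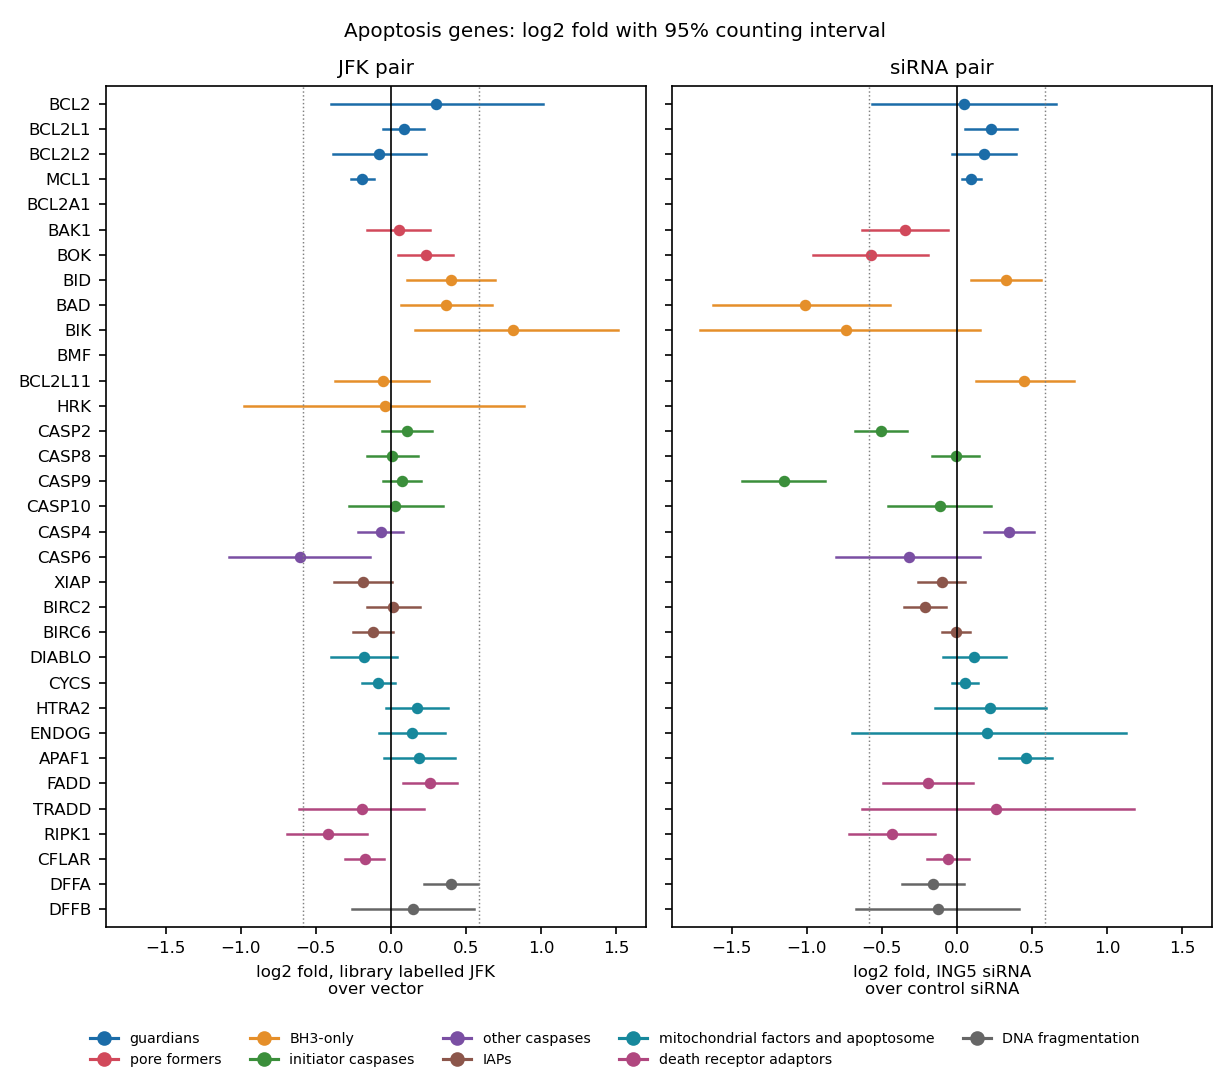
Log2 fold of each measured apoptosis gene (points) with its exact 95% counting interval (lines), for the library labelled JFK over vector (left) and ING5 siRNA over control siRNA (right), coloured by role. Dotted lines mark 1.5-fold, and CASP9 at −1.15 and BAD at −1.01 lie farthest left in the siRNA pair.

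The library labelled JFK is compared here with vector, where the interval of FBXO42 itself included 0. Among apoptosis genes BIK was higher and the executioner caspase CASP6 lower, each by more than 1.5-fold, and 0 of the 31 measured members were 2-fold apart, beside 0.57% of all measured genes. BID, BAD and DFFA were higher by smaller steps and RIPK1 lower. The median of the 31 measured members was 0.03, against 0.00 over all 12107 measured genes. Above 0 lay 18 members, beside 50.5% of all measured genes. The 1 member higher and 1 lower at 1.5-fold stand beside 1.5% higher and 2.07% lower among all measured genes, or 6.45% of members beside 3.57% in either direction.

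BIK had 54 counts in the library labelled JFK against 31 in vector, with FPKM of 7.84 in the library labelled JFK, 4.56 in vector (log2 fold 0.81, interval 0.16 to 1.51). CASP6 had 63.9 expected counts in the library labelled JFK against 99.3 in vector, with FPKM of 5.46 in the library labelled JFK, 8.37 in vector (−0.61, interval −1.08 to −0.14). Both genes are read from under 100 counts per library, and the count of CASP6 is not whole, as can arise when reads are divided between genes. MCUB, which overlaps CASP6 on the opposite strand, had whole counts, 42 in the library labelled JFK against 41 in vector.

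RIPK1 had 206 expected counts in the library labelled JFK against 281 in vector (−0.42, interval −0.69 to −0.16). FADD had 548 counts there and 465 in vector (0.26, interval 0.08 to 0.44). For CFLAR the expected counts were 902 in the library labelled JFK, 1035 in vector (−0.17, interval −0.30 to −0.04), and TRADD lay at −0.19 (interval −0.61 to 0.22). The death receptor adaptors were thus split, with FADD above 0 and the other members below. DFFA had 582 expected counts in the library labelled JFK against 449 in vector (0.40, interval 0.22 to 0.58), and DFFB lay at 0.15 (interval −0.26 to 0.55). Exons of DFFA overlap PEX14 on the opposite strand, with 152 counts in the library labelled JFK against 143 in vector.

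BID, the link between both routes, had 227 counts in the library labelled JFK against 175 in vector (0.40, interval 0.11 to 0.69). BAD, with 212 counts there and 167 in vector, was higher too (0.37, interval 0.07 to 0.67). GPR137, which overlaps BAD on the opposite strand, had 270 counts in the library labelled JFK against 246 in vector, and reads from the overlap cannot be told apart. Of the pore formers, BOK had 528 counts in the library labelled JFK, 457 in vector (0.23, interval 0.05 to 0.42), while BAK1 lay at 0.05 (interval −0.16 to 0.26). MCL1 had 2511 counts in the library labelled JFK against 2914 in vector (−0.19, interval −0.27 to −0.11), the narrowest interval of these. BCL2L1 lay at 0.09 (interval −0.05 to 0.22), BCL2L2 at −0.08 (interval −0.39 to 0.24), and BCL2 at 0.30 from 40 counts in the library labelled JFK, 33 in vector (interval −0.40 to 1.01). The direction of BCL2 turns with the unit, since its FPKM was 1.15 in the library labelled JFK against 1.52 in vector. The same holds for BCL2L11, with 167 expected counts and 7.10 FPKM in the library labelled JFK against 177 expected counts and 6.25 FPKM in vector. BCL2L2 shares exons with the readthrough gene BCL2L2-PABPN1, which had 463 expected counts in the library labelled JFK, 476 in vector, so its reads are uncertain.

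The other caspases, IAPs and mitochondrial factors lay within counting error of 0. CASP2 lay at 0.11, CASP8 at 0.01, CASP10 at 0.03 and CASP4 at −0.07. XIAP lay at −0.19 (interval −0.38 to 0.01), BIRC6 at −0.12 and BIRC2 at 0.02. The mitochondrial factors ran from −0.18 for DIABLO to 0.19 for APAF1, with HTRA2 at 0.18, ENDOG at 0.14 and CYCS at −0.08. In total 6 intervals lay above 0 (BIK, BID, DFFA, BAD, FADD and BOK) and 4 below (CASP6, RIPK1, MCL1 and CFLAR), where all measured genes gave 14.3% and 11.2%.

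In the JFK pair the fold followed GC content. Over 10971 genes the Spearman rho was 0.56, and over the 31 members 0.40, with GC taken from the longest coding transcript of GENCODE 29. The median log2 fold was −0.20 among the lowest of 20 equally filled GC bins (mean GC 35.7%) and 0.19 in the highest (66.5%). Of the 6 members above 0, BAD (66.3% GC), BOK (66.0%) and FADD (58.6%) are rich in GC, and MCL1 and CFLAR, below 0, have 45.1% and 44.1%. With the median of each bin subtracted, an alternative added after the data were seen, BOK stood at 0.05, FADD at 0.12, BAD at 0.18, MCL1 at −0.14 and CFLAR at −0.10. BIK stood at 0.70, DFFA 0.41, BID 0.39, RIPK1 −0.43 and CASP6 −0.56, the last under 1.5-fold. In the siRNA pair the same step left CASP9 at −1.13, BAD at −0.98 and APAF1 at 0.46. The part of GC content in each fold was not otherwise tested.

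**Figure D4:**
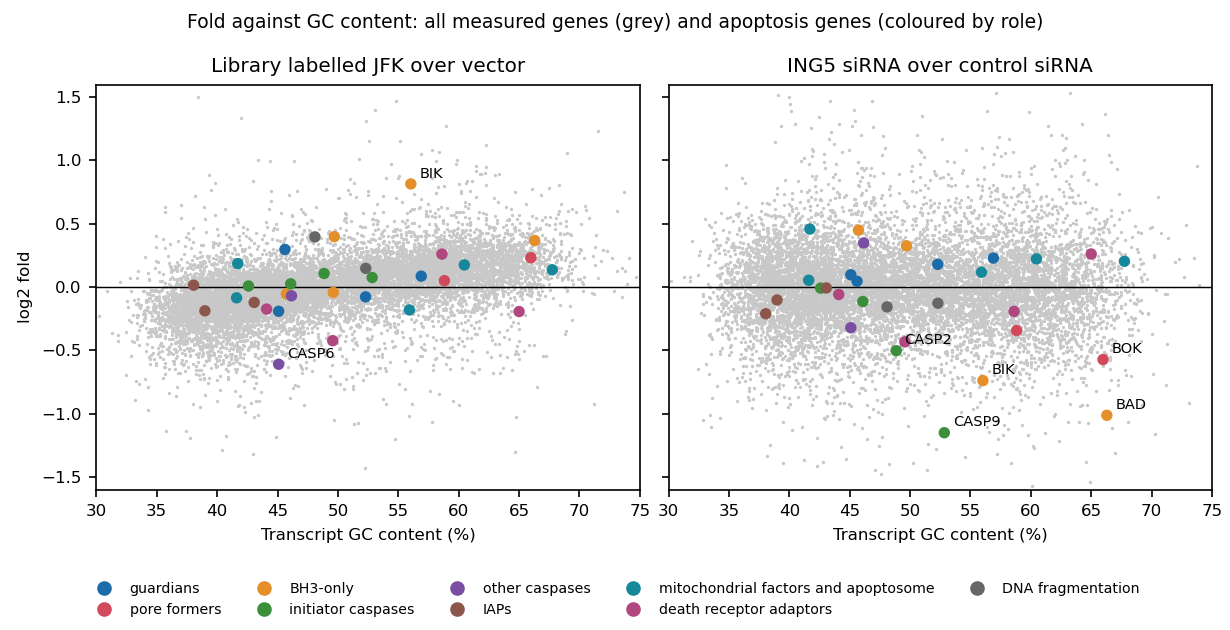
Log2 fold against transcript GC content (percent) for all measured genes (grey; a few lie outside the axes) and the apoptosis genes (coloured by role), in the JFK pair (left) and the siRNA pair (right). The cloud slopes upward in the JFK pair (Spearman rho 0.56) and is level in the siRNA pair (−0.004), where CASP9 and BAD lie below it.

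The comparisons have separate controls and were then set side by side. Of 30 members measured in both, 6 were above 0 in both, 5 below 0 in both and 19 opposite in sign, so 36.7% had the same sign against 49.7% of 11148 genes. With GC bins subtracted the share was 40.0% of members and 50.9% of 10326 genes. The Spearman rho between the folds was −0.16 over the members and 0.03 over all genes, a description since genes share libraries. Members whose intervals lay off 0 in both pairs were BAD, BOK and MCL1 with opposite signs, and BID and RIPK1 with the same sign. The share of all measured genes with intervals off 0 in both pairs was not computed, so no excess among members can be read from this. In the JFK pair singly, 14.3% of all measured genes had intervals above 0 and 11.2% below. In the siRNA pair these shares were 18.3% and 20.6%. With GC bins subtracted, the JFK pair folds were 0.18 for BAD, 0.05 for BOK and −0.14 for MCL1, that of BOK lying below its counting interval. They were 0.39 for BID and −0.43 for RIPK1. BAD stood at 0.37 in the library labelled JFK over vector and at −1.01 in ING5 siRNA over control siRNA, and RIPK1 at −0.42 in the JFK pair and −0.43 in the siRNA pair. BIK stood at 0.81 in the library labelled JFK over vector and at −0.74 in ING5 siRNA over control siRNA, where its interval includes 0.

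**Figure D5:**
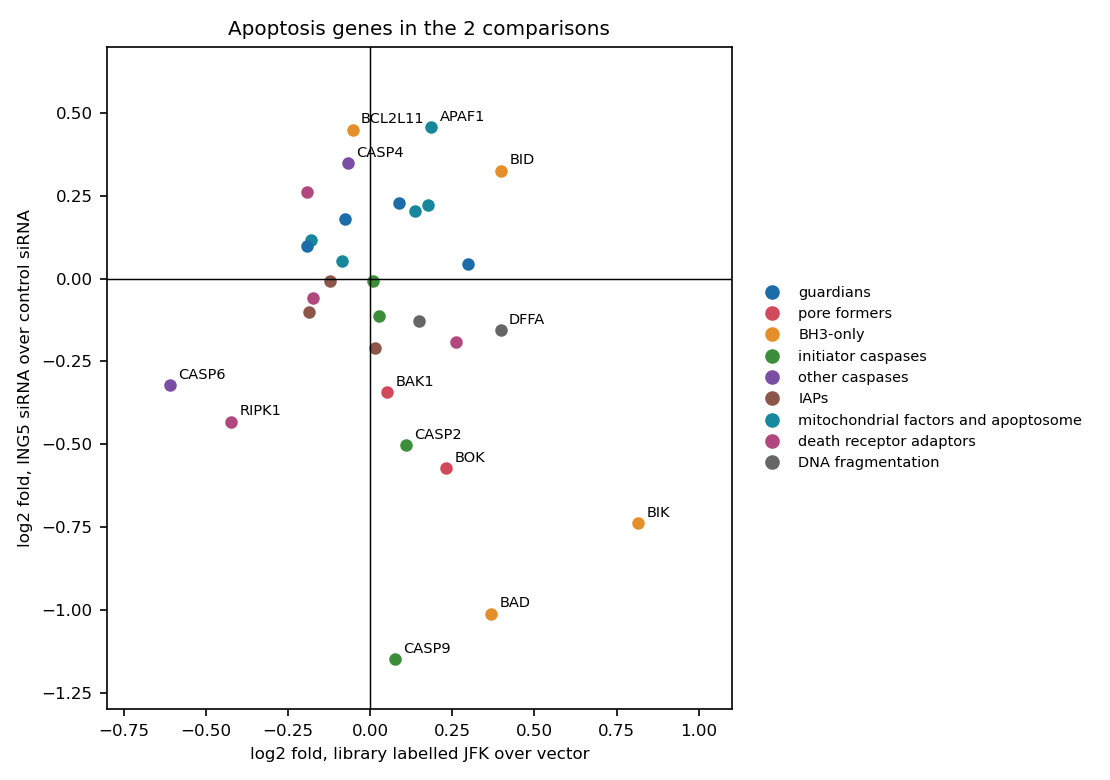
Log2 fold of the 30 apoptosis genes measured in both comparisons, library labelled JFK over vector (horizontal) against ING5 siRNA over control siRNA (vertical), coloured by role. Opposite signs were seen for 19 genes, among them BIK and BAD at the lower right, while RIPK1 lies lower left and BID upper right.

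A further 56 apoptosis genes were read beside the 33, of which 47 were measured in each pair. In the siRNA pair 23 lay above 0 and 24 below, 1 was at least 1.5-fold higher and 3 lower (median −0.01). That is 8.51% apart in either direction, beside 8.41% of all measured genes. The highest was BIRC3, which encodes cIAP2 and is a target of NF-kB, with 4394 counts in ING5 siRNA and 2272 in control siRNA (0.97, interval 0.89 to 1.04). DAPK3, a death-associated kinase, and PMAIP1, the BH3-only protein NOXA, followed at 0.47 and 0.45. The lowest were CASP14, the caspase of skin barrier formation, with 17 counts in ING5 siRNA and 46 in control siRNA (−1.39), the chaperone cofactor BAG1 (−0.68) and DAPK1 (−0.65). In the JFK pair 31 lay above 0 and 16 below, 1 was 1.5-fold higher and 3 lower (median 0.05). All measured genes gave 50.5% above 0, and 3.57% at least 1.5-fold apart in either direction against 8.51% of this list. Among the lowest were XAF1, an antagonist of XIAP, with 177 expected counts in the library labelled JFK against 449 in vector (−1.31), and NAIP (−0.94), which has near-identical copies and is uncertain. The highest were BBC3, the BH3-only protein PUMA, at 0.60 with an interval across 0, DAPK3 at 0.42 and BAX at 0.28. These 3 are rich in GC (69.7%, 65.9% and 58.9%). With GC bins subtracted they stood at 0.41, 0.23 and 0.14, while XAF1 stood at −1.22 and NAIP at −0.85. The counts above and below 0 were not repeated with this step.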

How the data were processed

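Per the labels, Trizol RNA was read on a HiSeq machine, in 1 library per group. The submitters' processing notes name STAR, fastp, FastQC, DESeq2 and the builds hg19 and GRCh37, without roles or versions; no source used here names the read counter. Tables of the library labelled JFK and of vector hold deposited expected counts (69.0% and 68.6% of them whole) beside deposited FPKM, per the file headers. Those of the siRNA pair hold whole deposited counts with deposited RPKM. Identifiers were matched to symbols through a RefSeq table of GRCh38.p14 (16899 and 16767 matched, 110 and 89 not). There were 2 identifiers listed more than once with different counts in the siRNA tables and 1 gene with a blank count in the JFK table, which were left out.

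Counts were scaled with TMM factors (trims 0.3 and 0.05) over the whole table of each pair, 0.5 was added and the log2 ratio taken, with Python 3.11.15, numpy 2.4.6, pandas 2.3.3, scipy 1.17.1 and matplotlib 3.10.9. For each ratio of 2 counts an exact 95% Clopper-Pearson interval was computed after rounding expected counts; reads are not independent molecules, so it covers counting error only. A floor of 3 counts equals 0.415, 0.418, 0.332 and 0.326 CPM in the library labelled JFK, vector, ING5 siRNA and control siRNA. Genes averaging 20 or more normalised counts were called measured, and 1.5-fold was the threshold. With 1 library per group no count model was tested. The method was tested on simulated counts drawn with counting error only, so that test does not cover variation between libraries, GC content or divided counts. Named genes were the 33 members, the 3 highest and 3 lowest of 56 further apoptosis genes, the markers and both targets, except 1 gene that is not reported here; BAX in the siRNA pair, overlapping genes and the promoters printed were chosen after values were seen. Members and lists were chosen with earlier results of these data known.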

Additional observations from a re-analysis of the deposited data

How the results depend on the processing

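Results rest on 1 library per group. Members under about 100 counts per library have wide counting intervals, such as BIK and CASP6 in both pairs and BAD in the siRNA pair. No paired analysis was possible because each group holds 1 library. Alternatives were median-of-ratios and total-count scaling, 5 added, no filter, a mean of at least 100, FPKM or RPKM with 0.1 added, a 2-fold threshold, genes left out whose count and FPKM or RPKM disagree by over 10%, genes left out whose expected counts are not whole, and GC-centred folds, added after the data were seen. Leaving out genes with divided counts does not apply to the siRNA pair, where all counts are whole. No called member changed sign under any of these. CASP9 ran from −1.17 to −1.13 and BAD from −1.03 to −0.93 in the siRNA pair, while BIK ran from 0.70 to 0.81 and CASP6 from −0.64 to −0.56 in the JFK pair. The member medians ran from −0.05 to −0.01 in the siRNA pair and from −0.02 to 0.06 in the JFK pair. In the siRNA pair the 3 members lower at 1.5-fold became 1 at a mean of at least 100, which leaves out BAD and BIK, and BOK joined them under median-of-ratios scaling. The 0 higher became 2 with no filter, BMF and HRK, whose intervals include 0. In the JFK pair the 1 higher became 3 with no filter, which adds BMF and BCL2A1, and 0 at a mean of at least 100 or at 2-fold. The intervals of BMF and BCL2A1 include 0, and BCL2A1 lies under the floor of 3 counts, so its place in that number is not a result. The 1 lower, CASP6, became 0 with 5 added, at a mean of at least 100, at 2-fold, without genes that have divided counts, and GC-centred. Of single members, BOK (0.05) and CYCS (0.03) moved outside their counting interval when GC-centred in the JFK pair.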
